A study of Mus musculus with 6 samples.

Results

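Kinesin motor genes were followed in regulatory T cells (Tregs) from tumors, with and without anti-PD-1 treatment. The genes are the 37 symbols, of 23420 in the deposited count table, that consist of Kif, a number and at most a letter from a to c and a digit. They were split into 11 mitotic kinesins (Kif2c, Kif4, Kif11, Kif14, Kif15, Kif18a, Kif18b, Kif20a, Kif20b, Kif22 and Kif23) and 26 other kinesins. The cells were GFP-positive Tregs of BALB/c Foxp3-GFP mice, in which the Treg lineage factor Foxp3 is marked by green fluorescent protein, sorted to a purity above 90%. Both groups of mice carried T11 tumors, which are claudin-low and triple-negative breast tumors grown from 10000 injected cells and were harvested at 150 mm2. 3 libraries (untreated 1, 2 and 3) came from mice without treatment, and 3 (anti-PD-1 4, 5 and 6) from mice given 200 µg of the antibody J43 by intraperitoneal injection 2 times a week. The labels give no age or sex. Whether each library is its own mouse or a pool is not stated, so a p-value here reflects the scatter among 6 libraries, part or all of which may be technical.

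Kinesins are motor proteins that use ATP to move along microtubules or to take microtubules apart. The mitotic members build the spindle, move chromosomes and complete cell division, and their genes are transcribed mainly late in the cell cycle. The others carry vesicles, mitochondria and endosomes, serve cilia, or trim microtubule ends. The split follows a fixed list, and Kif2a and Kif24, kept with the others, also have cell cycle roles. In T cells, microtubule motors also position the centrosome and deliver granules and receptors to the contact with another cell. Promoters of late cell cycle genes are known for an element called CHR (cell cycle genes homology region), with the core TTTGAA, often near CCAAT boxes or E2F sites such as TTTGGCGC.

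The promoters of the mitotic kinesins are shown first, because this core was frequent in them. RefSeq promoter windows (assembly GRCm38.p6, 250 bases before to 50 bases after the start) were found for 10 of the 11 mitotic kinesins, all but Kif20a. TTTGAA occurred on either strand in 9 of the 10, all but Kif18a, and in 17.9% of all 32851 windows. In 7 of the 10 it lay within 60 bases before and 30 bases after the start, where 4.62% of all windows had it. Among the 26 other kinesins, 21 had a window and 3 of these held the core (Kif1a, Kif26b and Kif27). Of these 21 others, 11 had enough counts to be tested, and none of those 11 held it. Kif5b, Kif13b and Kif21b, which were also tested, had no window. The sequence CCAAT occurred in 6 of the 10 mitotic windows, against 37.4% of all windows. TTTGGCGC occurred in Kif15 and Kif18a and in 0.514% of all windows, and the second E2F form searched, TTTCCCGC, in none of the mitotic windows and 1.07% of all. TTTAAA, a variant of the CHR core, occurred in Kif14 and Kif2c, against 13.2% of all windows. These matches are descriptions of letters in the windows, and the narrower stretch was chosen after the matches were seen. Below are the 60 bases before and 30 bases from the RefSeq start for 6 mitotic kinesins, chosen with the comparison known. Kif11, Kif15, Kif20b and Kif23 had an unadjusted edgeR p under 0.05, Kif22 had groups without overlap, and Kif18a has no TTTGAA. Kif4 and Kif18b, not shown, also held the core in this stretch, and Kif14 and Kif2c held it further upstream. A relation between the core and the fold changes was not tested. Capitals mark the CHR core, the CCAAT box and the E2F form named above, on either strand. A match on the opposite strand reads TTCAAA for the core, ATTGG for the box and GCGCCAAA for the E2F form. Each stretch is written 5′ to 3′ on the gene's strand.
Kif11 (chr19:37376322-37376411, plus strand): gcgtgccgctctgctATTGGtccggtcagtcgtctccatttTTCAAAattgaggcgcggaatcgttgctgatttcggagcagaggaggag
Kif15 (chr9:122951021-122951110, plus strand): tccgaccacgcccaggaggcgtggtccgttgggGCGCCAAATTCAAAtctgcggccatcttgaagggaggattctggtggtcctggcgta
Kif20b (chr19:34922298-34922387, plus strand): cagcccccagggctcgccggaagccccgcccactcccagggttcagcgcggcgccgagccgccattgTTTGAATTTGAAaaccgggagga
Kif23 (chr9:61946770-61946859, minus strand): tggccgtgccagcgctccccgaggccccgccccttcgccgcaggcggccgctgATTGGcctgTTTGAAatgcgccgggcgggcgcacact
Kif22 (chr7:127042391-127042480, minus strand): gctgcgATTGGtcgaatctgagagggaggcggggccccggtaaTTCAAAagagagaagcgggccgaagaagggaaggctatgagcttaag
Kif18a (chr2:109280678-109280767, plus strand): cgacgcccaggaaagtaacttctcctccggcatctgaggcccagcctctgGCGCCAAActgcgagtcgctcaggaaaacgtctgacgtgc
In Kif11 and Kif15 the core began 19 bases before the start, and in Kif15 it followed the E2F form directly. Kif20b held 2 copies side by side, beginning at bases 8 and 14 of the transcript. In Kif23 it began at base 3, after a CCAAT box in reverse that began 7 bases before the start. The start used here equals the gene's first base in the count table for 5 of these 6 genes, and lies 21 bases upstream of it for Kif11.

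Total counts ran from 4766533 to 6686774, and every untreated library was deeper than every anti-PD-1 library. On the first dimension of a multidimensional scaling (35.7% of its variance), untreated 1 stood at 2.40 and the others between -0.66 and -0.39. The 5 Treg markers summed to 4609 to 5241 CPM (counts scaled to a common library size by TMM) untreated and 4177 to 4797 CPM after anti-PD-1. Foxp3 (438 to 461 and 462 to 563 CPM) and Cd4 (365 to 460 and 468 to 498 CPM) were higher after anti-PD-1 without overlap. Ikzf2 was lower without overlap (2004 to 2365 and 1684 to 1922 CPM), and Il2ra and Cd3e overlapped. Of all tested genes, 7.18% were higher and 6.44% lower after anti-PD-1 without overlap. Markers of other cells were low: 5 macrophage and monocyte markers summed to 12.996 to 28.1 CPM untreated and 14.04 to 29.4 CPM after anti-PD-1. The 7 tumor and fibroblast markers summed to 27.6 to 53.6 and 37.4 to 53.8 CPM. Most of that sum was Fn1 (23.3 to 45.9 CPM untreated and 31.0 to 43.9 CPM after anti-PD-1). Krt5 and Krt14 were at 0, which does not show that tumor cells were absent. CD8 markers (2) summed to 11.1 to 31.2 and 18.8 to 51.2 CPM, B cell markers (3) to 2.89 to 5.19 and 3.10 to 9.12 CPM, and NK cell markers (2) to 1.25 to 5.94 and 0.413 to 3.53 CPM. Beside 13.6% of all tested genes taken singly, the groups did not overlap for 3 of the 9 marker lists. They were neutrophil markers (3 matched, 10.3 to 18.3 CPM untreated and 1.52 to 3.92 CPM after anti-PD-1, nearly all Ltf, with S100a9 at 0), dendritic cell markers (3, 0 to 0.338 and 2.68 to 6.46 CPM) and endothelial markers (64.7 to 73.9 and 83.8 to 123 CPM, all of it Pecam1, with Cdh5 and Kdr at 0). Their part in the kinesin results, and that of depth, was not tested.

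In these Tregs, 3 kinesins carried much of the kinesin message. Set per kilobase of gene length, which allows genes to be compared, Kif5b, Kif21b and Kif2a held 45.7% of the mean kinesin signal over the 6 libraries. Kif5b, a heavy chain of conventional kinesin that moves mitochondria, lysosomes and vesicles, stood at 76.0 CPM per kilobase untreated and 66.2 after anti-PD-1. Kif21b, a motor that restrains microtubule growth and serves centrosome movement in T cells, stood at 33.1 and 37.5 CPM per kilobase. Kif2a, which depolymerises microtubule ends, stood at 30.2 and 25.9 CPM per kilobase. The highest mitotic kinesins came next, Kif11 at 24.0 and 13.5 and Kif23 at 21.8 and 13.6 CPM per kilobase. Within the mitotic group levels spanned 10.98-fold, down to Kif14 at 1.81 and 1.60 CPM per kilobase. The lowest tested kinesins were Kif24 and Kif7, both under 1.2 CPM per kilobase in each group.

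**Figure D1:**
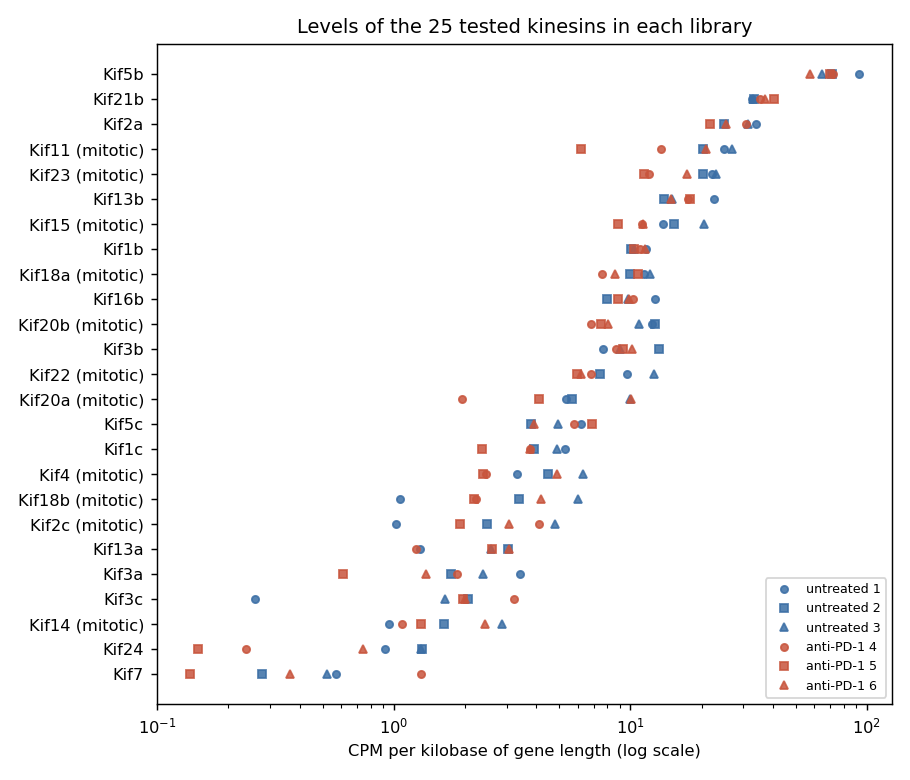
Levels of the 25 tested kinesins in each of the 6 libraries, as CPM per kilobase of gene length on a log axis, ordered by their mean over all libraries; blue points are untreated and red points anti-PD-1 libraries. Kif5b is at the top, and Kif11 and Kif23 are the highest of the mitotic kinesins.

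A filter on low counts left 25 kinesins for testing, all 11 mitotic and 14 of the 26 others. Of the 12 that did not pass, Kif1a, Kif2b, Kif6, Kif12, Kif17 and Kif26a were at 0 in all 6 libraries, where a count of 0 allows up to 0.449 to 0.629 CPM depending on the library (3 counts of its total, for counting error only). Kif5a, Kif9, Kif19a, Kif21a, Kif26b and Kif27 had at most 15 counts in any library. Several of these serve neurons (Kif1a, Kif5a, Kif17) or cilia (Kif9, Kif19a, Kif27).

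The comparison asked how the kinesins of tumor Tregs differ between anti-PD-1-treated and untreated mice. No kinesin passed edgeR's quasi-likelihood test over all 10352 tested genes (3 genes called, 0.029%), none passed limma-voom with quality weights, and edgeR's adjusted p over the 25 ran from 0.448 to 0.999. DESeq2 gave an adjusted p for 13 of the 25, 5 of them mitotic, and called none of these, beside 0.785% of all the genes it adjusted (0.3% lower). It gave none for the other 12, those lowest in mean CPM. Of the mitotic kinesins, 10 of 11 had fold changes below 0, with a median of -0.54 (log2), where 49.9% of all tested genes lay below 0 with a median of 0.00. Of the 14 tested other kinesins, 9 lay below 0, with a median of -0.06. At an unadjusted p under 0.05 stood 4 mitotic kinesins and Kif24, all lower after anti-PD-1. Of all tested genes, 8.3% had such a p, 4.07% lower and 4.23% higher. The groups did not overlap for 4 mitotic kinesins, all lower after anti-PD-1 (36.4% of them, beside 6.44% of all tested genes). The 11 were proposed with earlier results of these data known, so these counts describe the group and do not test it.

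**Figure D2:**
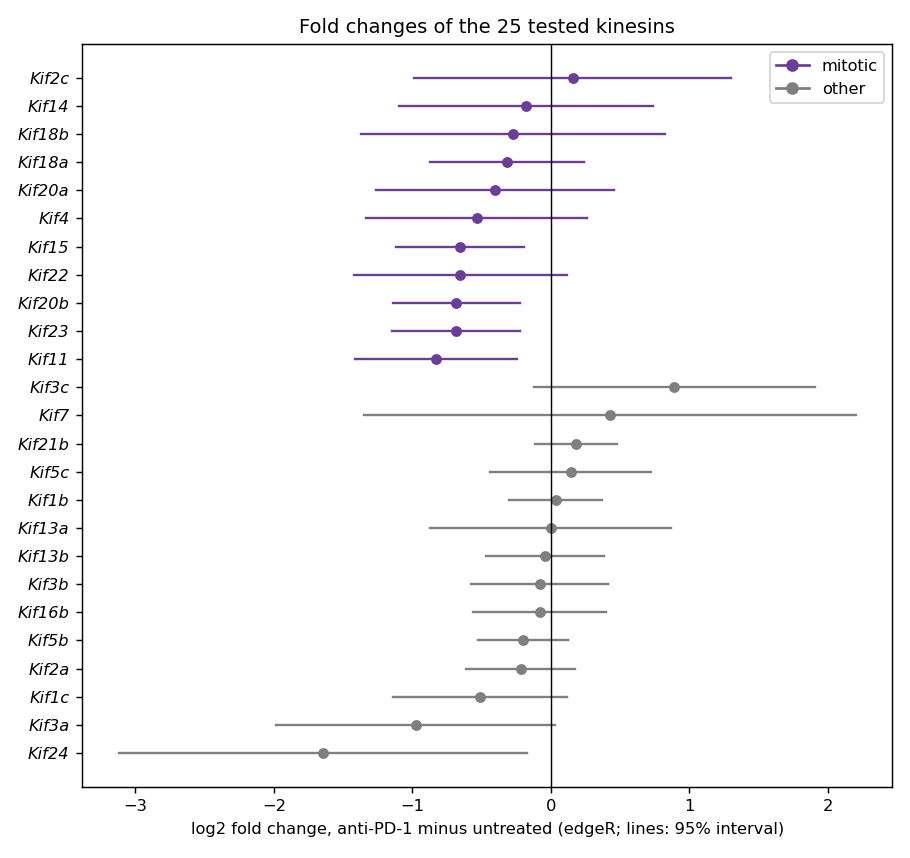
Log2 fold change of each tested kinesin, anti-PD-1 minus untreated, from edgeR's fit with its 95% interval, for 11 mitotic (purple) and 14 other (gray) kinesins. The intervals of Kif11, Kif23, Kif20b and Kif15 among the mitotic ones, and of Kif24 among the others, lie wholly below 0, before any adjustment over genes.

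The motors that separate the spindle poles had lower means after anti-PD-1, and Kif11 had the largest fold change of the mitotic kinesins. Kif11 (Eg5; mm10 chromosome 19, 37376403 to 37421859, plus strand) cross-links antiparallel microtubules and pushes the poles apart. It stood at 119.8, 98.0 and 129 CPM in untreated 1, 2 and 3 and at 65.0, 29.9 and 101 CPM in anti-PD-1 4, 5 and 6. The groups overlapped, since anti-PD-1 6 lay just above untreated 2, and anti-PD-1 5 was far below all others. Its log2 fold change was -0.83 ± 0.28 (SE; edgeR adjusted p = 0.461). Its adjusted p lay between 0.0331 and 0.934 under the alternatives, and it passed in 1 of them, without the filter on low counts. That setting called 52 of its 14756 genes, 16 of them lower, beside 3 of 10352 in the main test. The fold change of Kif11 was -0.49 without anti-PD-1 5 and -1.27 without anti-PD-1 6. Kif15 (chromosome 9, 122951081 to 123018733, plus strand), which can take over pole separation from Kif11, stood at 66.1, 73.4 and 99.0 CPM untreated and at 54.1, 42.9 and 54.3 CPM after anti-PD-1. Every anti-PD-1 library was below every untreated one, and the log2 fold change was -0.65 ± 0.22 (edgeR adjusted p = 0.461). Both genes carry TTTGAA in reverse at the same distance from the RefSeq start in the promoters printed above. For Kif11 that start lies 21 bases upstream of the one in the count table. The position is not particular to these 2 genes, since the reverse core of Kif22 began 17 bases before its start. The core was in 9 of the 10 mitotic windows, and its relation to these fold changes was not tested.

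Motors of the central spindle and of cytokinesis were mixed, with separate groups for Kif20b and Kif23 and overlap for Kif20a and Kif14. Kif20b (chromosome 19, 34922358 to 34975731, plus strand), a motor of late cytokinesis, stood at 68.3, 70.7 and 60.5 CPM untreated and at 38.0, 41.9 and 44.6 CPM after anti-PD-1. The means were 66.5 ± 5.35 and 41.5 ± 3.32 CPM (SD, n = 3 per group), with no overlap, and its fold change of -0.68 ± 0.22 (edgeR adjusted p = 0.448) stayed between -0.75 and -0.62 whichever library was left out. Kif23 (MKLP1; chromosome 9, 61917278 to 61946799, minus strand), the motor subunit of centralspindlin, stood at 75.6, 69.5 and 78.9 CPM untreated and at 41.2, 39.2 and 59.5 CPM after anti-PD-1. Its groups did not overlap either, although anti-PD-1 6 was nearer to the untreated libraries, and the log2 fold change was -0.68 ± 0.22 (edgeR adjusted p = 0.448). Kif20a (MKLP2), which carries the chromosomal passenger complex to the central spindle, stood at 20.9, 22.2 and 38.9 CPM untreated and at 7.60, 16.0 and 39.2 CPM after anti-PD-1. Here the highest library was anti-PD-1 6, and the fold change of -0.40 ± 0.42 became 0.02 without anti-PD-1 4. Exons of Kif20a overlap those of Brd8 and Cdc23 on the opposite strand, and the counting was by strand. Kif14, which acts with citron kinase in cytokinesis, stood at 8.34, 14.3 and 25.01 CPM untreated and at 9.50, 11.4 and 21.3 CPM after anti-PD-1, with complete mixing of the groups (log2 fold change -0.18 ± 0.44). Untreated 1 was its lowest library, and its sign turned without untreated 3 (0.31) or anti-PD-1 4 (0.05).

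Chromokinesins, which bind chromosomes, had lower means after anti-PD-1. Kif22 (Kid), which pushes chromosome arms from the poles, stood at 20.1, 15.4 and 26.03 CPM untreated and at 14.1, 12.2 and 12.8 CPM after anti-PD-1. The groups did not overlap, but the gap between untreated 2 and anti-PD-1 4 was small (log2 fold change -0.65 ± 0.37, edgeR adjusted p = 0.674). Kif4, which organises the central spindle with Prc1, stood at 15.6, 21.1 and 29.7 CPM untreated and at 11.6, 11.2 and 23.1 CPM after anti-PD-1. Anti-PD-1 6 exceeded 2 of the 3 untreated libraries, and the log2 fold change was -0.54 ± 0.39.

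On the mitotic list, Kif18a, Kif18b and Kif2c act on microtubule ends. They had fold changes nearer to 0 than Kif11 or Kif23, and their groups overlapped. Kif18a, which damps chromosome oscillations, stood at 38.5, 33.5 and 40.7 CPM untreated and at 25.5, 36.3 and 29.1 CPM after anti-PD-1. Its means were 37.6 ± 3.71 and 30.3 ± 5.51 CPM, anti-PD-1 5 lay above untreated 2, and the log2 fold change was -0.32 ± 0.27. Its close relative Kif18b stood at 3.53, 11.3 and 20.1 CPM untreated and at 7.41, 7.26 and 14.04 CPM after anti-PD-1. The untreated libraries alone spanned both extremes, and its fold change of -0.28 ± 0.53 became 0.40 without untreated 3. Kif2c (MCAK), a depolymerase that corrects faulty chromosome attachments, was the mitotic kinesin with a fold change above 0 (0.16 ± 0.55, 95% interval -0.98 to 1.301). It stood at 2.89, 6.98 and 13.5 CPM untreated and at 11.6, 5.39 and 8.67 CPM after anti-PD-1, from 18 to 80 counts per library. Untreated 1 was again the lowest, and without it the fold change was -0.26. For Kif2c, Kif14 and Kif18b, the 95% intervals include 0 as well as the fold change of Kif11.

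**Figure D3:**
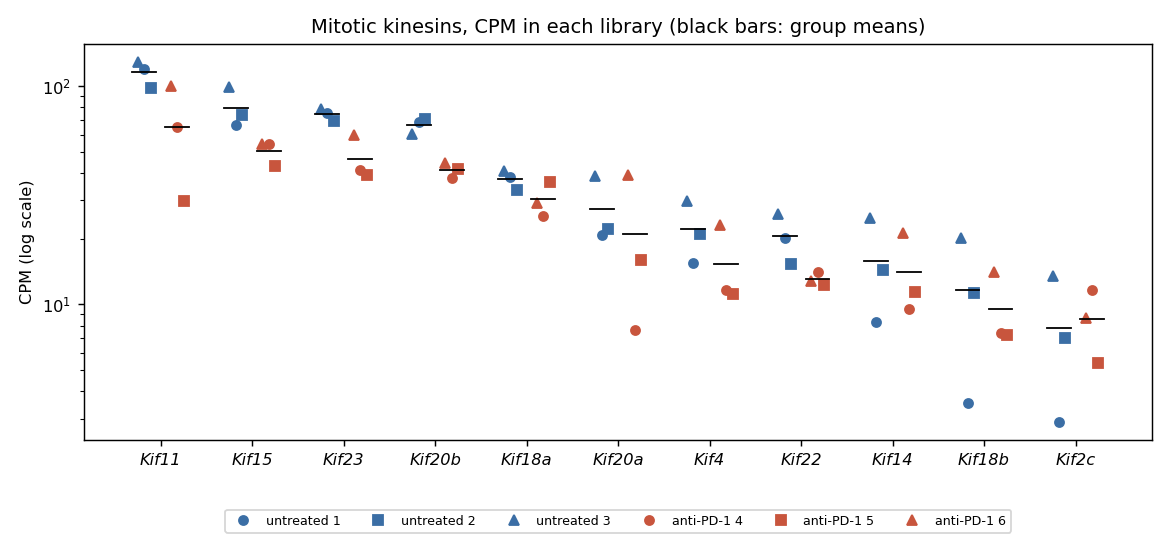
CPM of the 11 mitotic kinesins in each library on a log axis, blue for untreated and red for anti-PD-1 libraries, with black bars for group means. The groups do not overlap for Kif15, Kif23, Kif20b and Kif22, and untreated 1 is the lowest point for Kif14, Kif18b and Kif2c.

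Libraries of a group also differed from each other across the mitotic kinesins. Untreated 3 was the highest library for 9 of the 11, the exceptions being Kif20b (untreated 2) and Kif20a (anti-PD-1 6). Anti-PD-1 5 was the lowest for 5 (Kif11, Kif15, Kif22, Kif23 and Kif4), anti-PD-1 4 for 3 (Kif18a, Kif20a and Kif20b) and untreated 1 for 3. On a log2(CPM + 0.5) scale, untreated 1 was above the mean of the 6 libraries for Kif11, Kif15, Kif18a, Kif20b, Kif22 and Kif23 and below it for the other 5. Anti-PD-1 6 was above that mean for 7 mitotic kinesins, and anti-PD-1 4 and 5 for 1 each.

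Summed over the 11 genes, mitotic kinesins reached 439.6, 436 and 562 CPM in untreated 1, 2 and 3 and 286, 254 and 407 CPM in anti-PD-1 4, 5 and 6. The groups did not overlap, and the ratio of means was 0.658. Kif11, Kif15, Kif20b and Kif23, which had an unadjusted edgeR p under 0.05, weigh most in these sums. Their mean CPM was the highest of the 11 in both groups. The 26 other kinesins summed to 1531, 1286 and 1285 CPM untreated and to 1361, 1333 and 1257 CPM after anti-PD-1, where the groups overlapped and the ratio of means was 0.963. Scaling between libraries does not enter the share that mitotic genes hold of all kinesin signal per kilobase. That share was 31.3%, 35.2% and 41.5% in the untreated libraries and 25.6%, 24.5% and 34.8% after anti-PD-1, so anti-PD-1 6 lay above untreated 1 and the groups overlapped. A reference list held 6 proliferation genes (Mki67, Top2a, Cdk1, Ccnb1, Ccna2 and Pcna), and none passed edgeR over all genes. All their fold changes lay below 0 (49.9% of all tested genes), with a median of -0.70. They ran from -1.05 ± 0.54 for the mitotic kinase Cdk1 to -0.08 ± 0.18 for the replication clamp Pcna, and the groups overlapped for Cdk1, Ccna2 and Pcna. The other 3 were lower without overlap, beside 6.44% of all tested genes. DESeq2 gave no adjusted p for Cdk1 and Ccnb1. Mki67 had the smallest p of the list and was the only one DESeq2 called, beside 0.785% of all the genes that method adjusted (0.3% lower). It stood at 439, 653 and 829.7 CPM untreated and at 406, 255 and 428 CPM after anti-PD-1 (edgeR adjusted p = 0.366, DESeq2 adjusted p = 0.0382). As for the kinesin sum, its highest library was untreated 3, its lowest anti-PD-1 5, and the highest of the treated libraries anti-PD-1 6. In sorted bulk cells, fewer dividing cells and less message per dividing cell cannot be told apart.

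**Figure D4:**
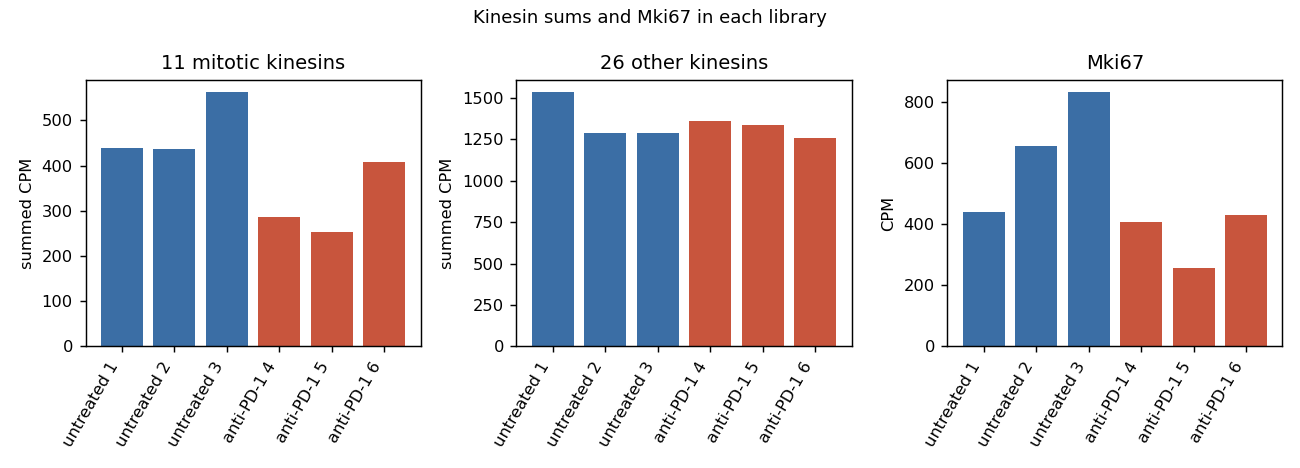
Bars give the summed CPM of the 11 mitotic kinesins, the summed CPM of the 26 other kinesins, and the CPM of Mki67 in each library, blue for untreated and red for anti-PD-1. Mitotic sums run from 436 to 562 CPM untreated and from 254 to 407 CPM after anti-PD-1, while the sums of the other kinesins overlap.

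The size of the mitotic difference depended on single libraries. The median log2 fold change of the 11 lay between -0.71 (without anti-PD-1 6) and -0.26 (without untreated 3), beside -0.54 with all libraries. Without anti-PD-1 4 it was -0.36. Fold changes of Kif4, Kif11, Kif15, Kif18a, Kif20b, Kif22 and Kif23 were below 0 whichever library was left out. Without untreated 1, the library that stood apart, all 11 lay below 0 and the median was -0.67. Without untreated 3, 8 of 11 lay below 0.

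**Figure D5:**
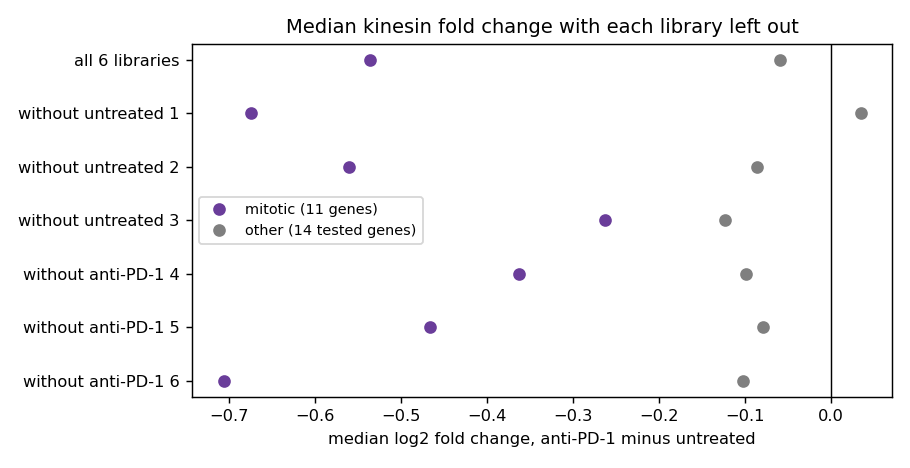
Median log2 fold change, anti-PD-1 minus untreated, over 11 mitotic (purple) and 14 tested other kinesins (gray), with all 6 libraries and with each left out. Mitotic medians run from -0.71 to -0.26 and those of the others from -0.12 to 0.03.

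Among the transport motors, the abundant ones had fold changes near 0. Kif5b stood at 558, 428 and 389 CPM untreated and at 431, 419.8 and 347 CPM after anti-PD-1, with overlapping groups and untreated 1 the highest (log2 fold change -0.20 ± 0.16, 95% interval -0.53 to 0.13). Kif21b (chromosome 1, 136131401 to 136178014, plus strand) stood at 299, 304 and 302 CPM untreated and at 321, 368 and 337 CPM after anti-PD-1. It was the only tested kinesin with every anti-PD-1 library above every untreated one (7.18% of all tested genes), but the difference was small (0.18 ± 0.14, edgeR adjusted p = 0.775, interval -0.12 to 0.48). Kif1b, a carrier of mitochondria and vesicles, stood at 173, 149 and 154 CPM untreated and at 164, 153 and 171 CPM after anti-PD-1 (0.03 ± 0.16, interval -0.30 to 0.37). Kif13b, which transports the scaffold protein Dlg1, stood at 127, 77.4 and 83.7 CPM untreated and at 97.8, 99.8 and 83.4 CPM after anti-PD-1 (-0.04 ± 0.21). Kif16b, which moves early endosomes, stood at 69.5, 43.5 and 53.4 CPM untreated and at 55.7, 48.3 and 53.9 CPM after anti-PD-1 (-0.08 ± 0.23). In these last 2 genes untreated 1 was the highest library and the treated libraries lay within the untreated range. Kif5c, a second conventional heavy chain, stood at 42.2, 25.97 and 33.8 CPM untreated and at 39.3, 47.1 and 26.8 CPM after anti-PD-1 (0.14 ± 0.28). Kif13a, a motor of recycling endosomes, had means of 15.8 ± 6.29 and 15.8 ± 6.50 CPM (log2 fold change 0.00 ± 0.42).

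The motor subunits of heterotrimeric kinesin-2, which serves cilia and vesicle transport, did not share a direction, since Kif3a and Kif3b lay below 0 and Kif3c above. Kif3a stood at 18.6, 9.49 and 13.014 CPM untreated and at 10.1, 3.32 and 7.43 CPM after anti-PD-1, with anti-PD-1 4 above untreated 2 (-0.98 ± 0.49, edgeR adjusted p = 0.617). Its partner Kif3b stood at 43.0, 74.1 and 50.7 CPM untreated and at 49.0, 52.3 and 57.0 CPM after anti-PD-1 (-0.08 ± 0.24). The alternative partner Kif3c stood at 1.76, 14.1 and 11.3 CPM untreated and at 22.0, 13.5 and 13.6 CPM after anti-PD-1 (0.89 ± 0.49, edgeR adjusted p = 0.660). Untreated 1, with 11 counts, was the lowest for Kif3c, the other 5 libraries lay between 11.3 and 22.0 CPM, and its fold change was between 0.38 and 1.36 with 1 library left out. The adaptor Kifap3 had a log2 fold change of -0.45 ± 0.39, with overlapping groups. Differences between these subunits were not tested. Exons of Kif3c overlap 1110002L01Rik on the opposite strand. Kif1c, a vesicle motor of the same family as Kif1b, stood at 35.8, 26.5 and 33.0 CPM untreated and at 25.5, 16.0 and 25.4 CPM after anti-PD-1. Its groups did not overlap (-0.51 ± 0.30, edgeR adjusted p = 0.691).

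Of the remaining others, Kif24 (chromosome 4, 41390748 to 41464848, minus strand) had the largest fold change of the 25. Kif24 acts at centrioles, where it trims microtubules and restrains the growth of cilia, and it is not on the mitotic list. It stood at 5.13, 7.34 and 7.27 CPM untreated and at 1.33, 0.83 and 4.13 CPM after anti-PD-1, from 4 to 43 counts per library. The groups did not overlap, with a log2 fold change of -1.65 ± 0.71 (edgeR adjusted p = 0.551, interval -3.12 to -0.17). Its fold change ranged from -2.56 (without anti-PD-1 6) to -1.28. Kif2a stood at 144, 105 and 132 CPM untreated and at 129.6, 91.3 and 106 CPM after anti-PD-1, with overlap (-0.22 ± 0.19). Kif7, a regulator of Hedgehog signalling at cilia, had 3 to 31 counts per library and means of 2.06 ± 0.707 and 2.72 ± 2.79 CPM. Its exons overlap Ticrr on the opposite strand.

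Genes that work with kinesins were counted from lists. Of 20 spindle and cytokinesis partners, all tested, none passed edgeR over all genes, 18 lay below 0 (not Aurka and Aurkb; 49.9% of all tested genes), and the median was -0.47. At an unadjusted p under 0.05, 7 were lower (4.07% of all tested genes). Bub1, a spindle checkpoint kinase, stood at 27.9, 27.8 and 36.0 CPM untreated and at 15.2, 13.3 and 17.96 CPM after anti-PD-1, with no overlap (-0.98 ± 0.33). Hmmr, a spindle-associated protein, had a fold change of -0.999 ± 0.335, the microtubule bundling protein Nusap1 -0.69 ± 0.25 and the spindle assembly factor Tpx2, which binds Kif11 and Kif15, -0.74 ± 0.28. EdgeR's adjusted p for these 4 was between 0.448 and 0.506. The partner of Kif23 in centralspindlin, Racgap1, stood at 24.5, 58.6 and 71.8 CPM untreated and at 54.3, 38.2 and 52.4 CPM after anti-PD-1 (-0.08 ± 0.30), and Prc1, the partner of Kif4, had a fold change of -0.59 ± 0.25. Values of both partners overlapped between the groups.

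Kinesins with other kinds of symbol were looked at as well. Of 5 (Cenpe, Kifc1, Kifc2, Kifc3 and Kifc5b), 4 were tested, 3 lay below 0 and none passed. Cenpe, the kinetochore motor that carries chromosomes to the spindle equator, stood at 47.7, 42.1 and 65.7 CPM untreated and at 36.9, 17.8 and 43.2 CPM after anti-PD-1 (-0.67 ± 0.29, edgeR adjusted p = 0.551). Its groups overlapped through anti-PD-1 6, as for Kif11. Kifc1, a motor that focuses spindle poles, and its near copy Kifc5b had fold changes of -0.38 ± 0.57 and 0.30 ± 0.86. Reads of these similar genes may be divided uncertainly, and Kifc2 stood at -0.09 ± 0.84. Of 21 light chains, adaptors and cargo linkers, 19 were tested and none passed, with 10 below 0 and 9 above and a median of -0.12. The smallest unadjusted p belonged to Madd, an adaptor of Kif1b (0.39 ± 0.18), the light chain gene Klc2 (1.29 ± 0.70), the scaffold gene Spag9 (-0.30 ± 0.18) and Fez2 (0.82 ± 0.50), with edgeR adjusted p between 0.591 and 0.703.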

How the data were processed

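The authors deposited a table of raw counts, in which read pairs were assigned to genes with featureCounts 1.5.2 on the UCSC mm10 annotation by strand (setting 1), per the file headers. The deposited gene length, another column of the same output, served for values per kilobase. Further tools in the submitters' processing notes are DESeq2, bcl2fastq and FastQC. How duplicates were handled is not given in the sources used here. 1 unnamed column was not used.

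From these counts, edgeR 4.0.16 (R 4.3.3) kept 10352 genes with filterByExpr (count 10, total 15), scaled by TMM and ran the two-sided quasi-likelihood test (glmQLFit, robust) with treatment as the only term, Benjamini-Hochberg adjusted at 0.05 over all tested genes. SEs and 95% intervals are from that fit. Alternatives used DESeq2 1.42.0, limma-voom (limma 3.58.1), other scalings and filters, and each library left out. The chi-square of counts between any pair of libraries was 9.71 to 30.8 per degree of freedom, so none was a copy.

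The members, the 6 pathway lists and the 9 marker lists were chosen with earlier results of these data known. The naming rule gives every tested kinesin, with values per library for the mitotic ones and for the other kinesins of smallest p or highest level, and up to 4 genes per pathway list by smallest p. Racgap1, Prc1, Kifap3, Kifc2 and the proliferation genes were named for their roles, and Tubb5 for its level. The lists had 130 entries, of which 3 were found under a synonym and 1 was not found. Promoter sequences are from RefSeq (GRCm38.p6), matched by symbol for 31 of 37 kinesins, and protein sequences were not used here.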

Additional observations from a re-analysis of the deposited data

How the results depend on the processing

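Among the kinesin values that the 15 alternatives gave, 1 passed, that of Kif11 without a filter on low counts (log2 fold change -0.84, edgeR adjusted p = 0.0331). That setting called 52 of its 14756 genes, 16 of them lower. DESeq2 gave no adjusted p for 12 of the 25 tested kinesins, and the stricter filter removed Kif7 and Kif24. Leaving out 1 library put the mitotic median between -0.71 and -0.26, the median of the other kinesins between -0.12 and 0.03 and the difference of medians between -0.71 and -0.14. The count of genes called over all tested genes was 3 in the main test, 5 with upper quartile scaling, 7 with total counts alone, 52 without a filter, 34 with DESeq2, 13 with limma-voom with quality weights, 5 without robust shrinkage, and 1 to 19 with a library left out (leaving out untreated 1 gave 19, untreated 2 gave 6, untreated 3 and anti-PD-1 6 gave 5 each, and anti-PD-1 5 gave 1). The cause of these changes was not tested. Of 373 kinesin fold changes under alternatives, 24 had the opposite sign. With all libraries these were Kif13a (0.033 with upper quartile scaling, 0.024 with total counts, 0.012 at the stricter filter) and, with limma-voom, Kif2c (-0.051), Kif13b (0.12) and Kif16b (0.046). With a library left out, the fold changes that changed sign ran from -0.26 to 0.83 for Kif2c, -0.60 to 0.31 for Kif14, -0.73 to 0.40 for Kif18b, -1.23 to 0.016 for Kif20a, -0.31 to 0.31 for Kif13a, -0.17 to 0.22 for Kif13b, -0.22 to 0.12 for Kif16b, -0.24 to 0.18 for Kif3b, -0.0053 to 0.10 for Kif1b, -0.038 to 0.33 for Kif5c and -0.86 to 0.88 for Kif7. Scalings moved the median of all genes by less than 0.1 (log2). An edgeR fit with dispersions estimated first, added after seeing the data, called 3 genes and no kinesin. No paired analysis was possible because the replicate numbers of the groups (1 to 3 and 4 to 6) do not overlap. Counts under 100 in some libraries limit Kif2c, Kif4, Kif14, Kif18b, Kif20a and Kif22 among the mitotic kinesins and Kif1c, Kif3a, Kif3c, Kif7, Kif13a and Kif24 among the others.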

Other observations

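Tubulins, the subunits of the microtubules on which kinesins walk, mostly had fold changes in the opposite direction to the mitotic kinesins. Of 17 listed, 13 were tested, 11 lay above 0 (not Tubb6 and Tube1), none passed edgeR over all genes, and the median was 0.25. Of all 10352 tested genes, 5191 lay above 0. Tubb5, the highest of the list in mean CPM (489 untreated and 496 after anti-PD-1), had a fold change of 0.02 ± 0.18. At an unadjusted p under 0.05, 3 tubulins were higher (4.23% of all tested genes). Tuba4a, an alpha-tubulin, stood at 30.2, 48.0 and 37.2 CPM untreated and at 60.03, 65.7 and 68.8 CPM after anti-PD-1, a log2 fold change of 0.76 ± 0.24 (edgeR adjusted p = 0.424). Tuba1a stood at 42.4, 38.1 and 38.5 CPM untreated and at 59.1, 55.0 and 59.1 CPM after anti-PD-1 (0.54 ± 0.23). The beta-tubulins Tubb2a (0.92 ± 0.39) and Tubb4a (1.35 ± 0.70) also had every anti-PD-1 library above every untreated one, which held for 7.18% of all tested genes. Tubulin genes are similar in sequence, so their separate counts are uncertain.

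Genes of dynein, the motor that moves opposite to most kinesins, and of its activator dynactin and adaptors had a median of -0.12, with 18 of 25 tested below 0 (49.9% of all tested genes) and none passing. The dynein light chain gene Dynlt3 stood at 77.2, 61.1 and 64.1 CPM untreated and at 56.0, 36.3 and 39.0 CPM after anti-PD-1 (-0.62 ± 0.23, edgeR adjusted p = 0.496). The intermediate chain gene Dync1i2 had means of 151 ± 31.3 and 114 ± 4.89 CPM (SD, n = 3 per group; -0.40 ± 0.18), also without overlap. Dctn5 (-0.67 ± 0.33) and Bicd1 (-0.67 ± 0.40) overlapped between the groups.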
